A study of Mus musculus with 22 samples.

Results

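Cytochrome P450 enzymes of families 1 to 4 are the members of the P450 superfamily that oxidize drugs, plant compounds, bile acids and fatty acids, and 82 of the 24421 genes counted in sorted mouse colon crypt cells carried such a name. The members were taken by symbol alone: every symbol that starts with Cyp, a digit from 1 to 4 and a letter was kept, and the 4 symbols that mark a pseudogene were left out. By family, 3 members belonged to family 1, 49 to family 2, 9 to family 3 and 21 to family 4. Of the 82, 80 were annotated as protein coding, Cyp4x1os was annotated as an antisense RNA, and Cyp2d13 was not found in the annotation used for positions and lengths. P450s sit in the membrane of the endoplasmic reticulum, hold a heme group and take electrons from the reductase encoded by Por. Families 1 to 3 are best known from the liver, where the receptors Ahr, Nr1i2 (PXR) and Nr1i3 (CAR) induce them, and family 4 hydroxylates fatty acids and eicosanoids. In the gut, P450s of surface cells meet compounds from the lumen first.

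The RNA came from 22 libraries of epithelial cells sorted by flow cytometry from colon crypts of untreated, wild type, male C57BL/6N mice of 5 to 7 weeks. Live Epcam+ Cd31- Cd45- cells were divided by Cd44, Cd24 and Ckit into stem cells (Stem, highest Cd44 with low Cd24 and no Ckit, 3 libraries), absorptive progenitors (AbsPro, medium to high Cd44, low Cd24, no Ckit, 3), secretory progenitors and deep crypt secretory cells (SecPDG, high Cd44, medium Cd24 and Ckit, 4), tuft cells (Ckit+, high Cd24, 5), enterocytes (Ent, low or no Cd44, no Cd24, 5) and enteroendocrine cells (EEC, low or no Cd44 with Cd24, 2). Each gate is a surface phenotype as the labels give it, and the study's text gives medium Cd44 for SecPDG and detects Kit protein in tuft cells alone. Replicates came from separate mice, or pools of mice, and separate sorts, with more pooling for the rarer cells, and the labels tie no library of 1 gate to a library of another by mouse. Gene counts ran from 4122122 in EEC 1 to 22462518 in Stem 2, and the libraries of Ent had 5950619 to 12966128. Values are gene counts scaled by TMM, called normalized counts below, and levels of different genes are ranked only per kilobase of exon.

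Markers were highest in the gate they mark, with exceptions for SecPDG and enterocyte markers. Summed stem markers were 10701 to 14651 in stem cells and 884 to 1399 in enterocytes, the 6 tuft markers were 25945 to 70345 in tuft cells and at most 8439.5 elsewhere, and the 6 EEC markers were 631136 to 1812200 in EECs and at most 28643 elsewhere. The 5 SecPDG markers, led by the mucin Muc2, were at 507530 to 1076160 in tuft libraries and 530705 to 1472660 in SecPDG libraries, ranges that overlap. The 2 EEC libraries differed: the 6 enterocyte markers summed to 23297 in EEC 1 and 142833 in EEC 2, against 53164 to 79456 in enterocytes and 71026 to 108573 in AbsPro, so that the mean in Ent was below that in AbsPro. Counts assigned to no gene made up 53.95% to 58.63% of all counts in the Stem, AbsPro and SecPDG libraries, 54.11% to 73.98% in tuft, 72.75% to 85.99% in Ent, 91.64% in EEC 1 and 70.66% in EEC 2. The share was over 80% in 4 libraries: Ent 1, Ent 2, Ent 3 and EEC 1. In bulk libraries, fewer cells of a type and less RNA per cell cannot be told apart.

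Summed over the 82 genes, P450 RNA was higher in AbsPro, Ent and EEC than in Stem and lowest in SecPDG. The sums were 7363, 8382 and 7694 normalized counts in the 3 Stem libraries and 17587, 16521 and 20841 in the 3 AbsPro libraries. They were 2962, 3959.6, 3439 and 3756 in SecPDG, 4532, 5786, 5849, 5836 and 4340.1 in tuft, 22814, 26569.7, 19011, 24170.3 and 19919 in Ent, and 12639 and 27412 in EEC 1 and EEC 2. The libraries of SecPDG lay below those of every other cell type, those of tuft lay between SecPDG and Stem, and AbsPro and Ent overlapped above Stem. Over only the 31 members with a mean of 50 or more, SecPDG (2809 to 3598) and tuft (3155 to 3916) overlapped. The order of SecPDG and tuft thus rests on the 51 members below that mean. With DESeq2's size factors the group mean was 15205.3 in AbsPro and 28697.8 in Ent, against 18316 ± 2250.5 (SD, n = 3) and 22497 ± 3094 (SD, n = 5) with TMM. The EEC libraries spread from below AbsPro to above Ent. Members took 0.0192% ± 0.0016 (SD, n = 4) of the gene counts in SecPDG and 0.205% ± 0.056 (SD, n = 5) in Ent.

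A few genes carried most of that RNA. Cyp2c55, which hydroxylates arachidonic acid, supplied 31.9% of the summed mean in AbsPro, 28.5% in Ent and 38.2% in EEC, but 3.48% in SecPDG and 1.95% in tuft. Per kilobase, the level of Cyp2c55 ranked first of the members in AbsPro (2932 normalized counts per kilobase), Ent (3217) and EEC (3832). Cyp2c65, its neighbour on chromosome 19, ranked first in Stem (877 per kilobase), Cyp2j6 in SecPDG (205) and Cyp4f40 in tuft (160.4). Averaged over the libraries, 50 or more normalized counts were reached by 31 members, 22 of family 2, 1 of family 3 and 8 of family 4. None of the 3 members of family 1 reached it. The remaining 51 members supplied 1.17% of the summed mean in AbsPro and 31% in tuft cells.

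**Figure D1:**
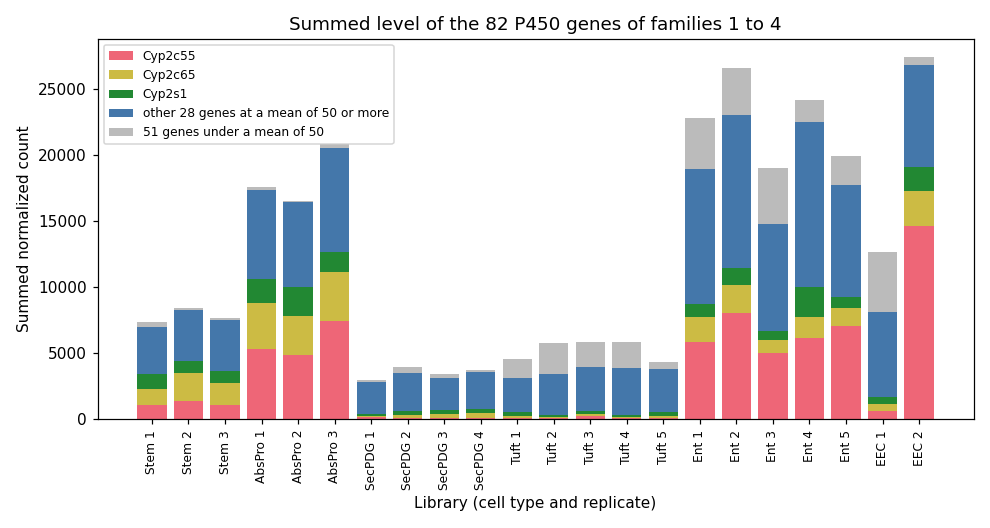
Summed normalized count of the 82 genes in each of the 22 libraries, stacked by gene: Cyp2c55, Cyp2c65, Cyp2s1, the other 28 genes with a mean of 50 or more, and the 51 genes below it. SecPDG bars end between 2962 and 3959.6 and Ent bars between 19011 and 26569.7, and Cyp2c55 fills 5.2% of the EEC 1 bar and 53.4% of the EEC 2 bar.

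A gene was called between cell types at an adjusted p under 0.01 in edgeR's quasi-likelihood test, over 22781 genes, where its mean across the 22 libraries was also 50 or more, so that only the 31 members above that mean could be called. Over the 6 cell types, 26 of the 81 members tested differed, beside 34.3% of all genes tested. In 8 comparisons between pairs of cell types, 25 of the 31 were called at least once. The same share over all genes at that mean was not computed, so this count says nothing particular to the members. The comparisons with Stem share its 3 libraries, so they are not independent of each other. The scaling moved the median log2 fold change of all abundant genes against Stem, which with TMM was -0.284 in Ent and -0.288 in EEC. Under DESeq2's size factors these medians were 0.345 and 0.472. No called member changed direction under either scaling or with library totals.

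**Figure D2:**
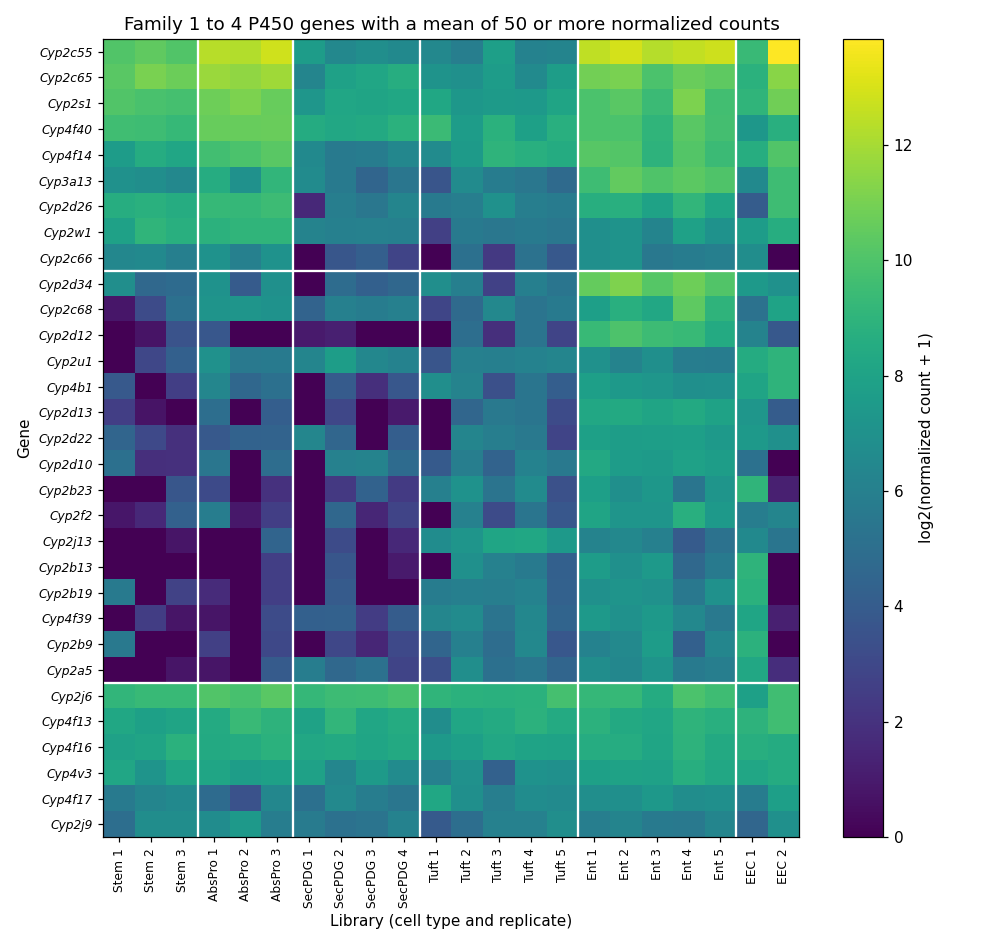
Heat map of log2(normalized count + 1) of the 31 genes with a mean of 50 or more (rows) in the 22 libraries (columns, grouped by cell type between white lines). The upper block holds 9 genes lower in SecPDG or tuft cells than in Stem or AbsPro, the middle block the other 16 genes with a call in the 8 comparisons, and the lower block the 6 genes with none.

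The first pattern was a low level of 9 members in SecPDG, 5 of which were also lower in tuft cells than in Stem. In SecPDG against Stem, 7 members were lower and 1, Cyp2u1, was higher, beside 1.59% and 3.39% of all genes. In SecPDG against AbsPro, 9 members were lower and 0 higher, beside 1.73% and 2%. Cyp2c55, Cyp2c65, Cyp2c66, Cyp2d26, Cyp2s1, Cyp2w1 and Cyp4f14 were lower in SecPDG in both comparisons, and Cyp3a13 and Cyp4f40 in the second. Tuft cells had 5 of them lower than Stem (Cyp2c55, Cyp2c65, Cyp2d26, Cyp2s1 and Cyp2w1) and 2 members higher, beside 4.24% and 8.07% of all genes. Over the 81 members tested, the median log2 fold change was 0.35 in SecPDG and 2.94 in tuft cells against Stem, beside 0.00 and 0.83 of all genes. With genes that had no read in 1 group set at the fold that 3 reads would give, the medians of the members were 0.30 and 2.94. Only 31 of the 81 had a mean of 50 or more. In both comparisons with Stem, the libraries of the 2 cell types did not overlap for any called member. How often this held over all called genes was not counted, so it is not read as a trait of the members.

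Cyp2c55 (ENSMUSG00000025002, chromosome 19, 39007019 to 39042693, plus strand) had 1062, 1387 and 1065 normalized counts in Stem and 5285, 4847 and 7414 in AbsPro. It had 203, 85.4, 111 and 92.1 in SecPDG and 87.7, 58.7, 226, 69.3 and 73.4 in tuft cells. In Ent it had 5874, 8027, 4985, 6114 and 7090.4, and in EEC 1 and EEC 2 657 and 14633. Every SecPDG and tuft library lay below every Stem library, every AbsPro and Ent library lay above it, and the EEC libraries lay on either side of Stem. Against Stem, SecPDG differed by a log2 fold change of -3.23 ± 0.53 (SE) and an adjusted p of 9.33e-06, and tuft by a log2 fold change of -3.54 ± 0.52 (SE) and an adjusted p of 4.78e-07. SecPDG against AbsPro gave a log2 fold change of -5.55 ± 0.53 (SE) and an adjusted p of 2.78e-11, a fold of 46.9. In the order of the means, EEC, Ent and AbsPro did not differ beyond their spread (adjusted p = 0.77 and 0.779 for the neighbours, edgeR), and neither did SecPDG and tuft (0.743).

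Cyp2c65 was high in Stem, AbsPro and Ent and low in SecPDG and tuft cells. It had 1259, 2123 and 1691 normalized counts in Stem, 3517, 2956 and 3714 in AbsPro and 1879, 2157, 977, 1638 and 1343 in Ent. SecPDG had 76.9, 240.4, 293 and 394, tuft 138, 124, 203, 97.2 and 205, and the EEC libraries 464 and 2640.1. SecPDG differed from Stem by a log2 fold change of -2.75 ± 0.39 (SE) and an adjusted p of 4.37e-07, and tuft from Stem by a log2 fold change of -3.44 ± 0.39 (SE) and an adjusted p of 6.66e-10. Ent was lower than AbsPro (a log2 fold change of -1.09 ± 0.33 (SE) and an adjusted p of 0.00595), a call that was lost with the other scalings and tests, without the 4 libraries with over 80% of counts outside genes, and without AbsPro 2, Ent 3 or Ent 5 (adjusted p up to 0.0222). Cyp2c66, the next gene on the chromosome, had 83.3, 93.4 and 61.2 in Stem, 133, 63.6 and 133 in AbsPro and 0, 11.8, 16.9 and 6.21 in SecPDG. Its call in SecPDG against Stem (adjusted p = 0.00953, edgeR) was lost without any 1 of the 7 libraries compared (adjusted p up to 0.0501). Of the 100-base windows in the transcripts, 7.82% of Cyp2c65 and 8.55% of Cyp2c66 occur in another gene, and none of Cyp2c55, so reads of the first pair could in part not be assigned to either.

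Cyp2c55, Cyp2c65 and Cyp2c66 lie side by side at 1 end of a run of 14 Cyp2c genes on chromosome 19 (39007019 to 40187333, mm10), and Cyp2c68 lies further along it. The other 10 genes of the run stayed below a mean of 50. Cyp2c55, Cyp2c65 and Cyp2c66 were called lower in SecPDG than in AbsPro, and Cyp2c68 was not (adjusted p = 0.196, edgeR). The SecPDG libraries of Cyp2c68 (20.0, 63.1, 55.2 and 65.2) still all lay below its AbsPro libraries (141, 150.4 and 132). The 250 bases before the start of these 4 genes are shown for that difference in calls alone. They are from RefSeq on GRCm38.p6, the assembly of mm10, read 5′ to 3′ on the gene's strand, at chr19:39006769-39007018, plus strand (Cyp2c55), chr19:39060756-39061005, plus strand (Cyp2c65), chr19:39113648-39113897, plus strand (Cyp2c66) and chr19:39741102-39741351, minus strand (Cyp2c68). Capitals mark 4 motifs searched on both strands. CAAAGTCCA is a binding site of HNF4, and GCGTG the core of the site of the aryl hydrocarbon receptor. AGGTCA is a nuclear receptor hexamer, and TATAAA has the letters of the TATA box, marked at any place in the window.
Cyp2c55: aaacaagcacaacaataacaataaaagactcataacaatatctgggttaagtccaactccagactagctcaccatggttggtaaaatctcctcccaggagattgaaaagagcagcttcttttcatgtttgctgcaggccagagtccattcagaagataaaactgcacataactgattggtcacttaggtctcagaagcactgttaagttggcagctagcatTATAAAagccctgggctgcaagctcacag
Cyp2c65: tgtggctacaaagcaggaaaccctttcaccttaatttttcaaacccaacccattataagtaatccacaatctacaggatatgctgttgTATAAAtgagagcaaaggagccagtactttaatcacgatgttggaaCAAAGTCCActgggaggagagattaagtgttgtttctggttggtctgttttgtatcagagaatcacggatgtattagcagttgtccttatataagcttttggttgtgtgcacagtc
Cyp2c66: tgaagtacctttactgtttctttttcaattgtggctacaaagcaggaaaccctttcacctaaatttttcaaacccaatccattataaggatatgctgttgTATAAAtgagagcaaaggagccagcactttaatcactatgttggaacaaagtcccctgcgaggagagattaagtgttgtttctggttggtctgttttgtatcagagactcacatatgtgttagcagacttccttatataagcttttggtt
Cyp2c68: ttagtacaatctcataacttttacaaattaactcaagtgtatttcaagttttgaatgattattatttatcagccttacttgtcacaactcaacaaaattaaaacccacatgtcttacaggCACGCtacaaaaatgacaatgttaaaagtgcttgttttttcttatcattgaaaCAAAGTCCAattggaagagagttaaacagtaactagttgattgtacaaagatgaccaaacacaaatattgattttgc

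TATAAA was found before Cyp2c55, Cyp2c65 and Cyp2c66, CAAAGTCCA before Cyp2c65 and Cyp2c68, and GCGTG before Cyp2c68. The marked TATAAA lies close to the start of Cyp2c55 and further before the starts of Cyp2c65 and Cyp2c66. The windows of Cyp2c65 and Cyp2c66 had 208 identical bases of 221 aligned with 58 gapped positions, and Cyp2c55 and Cyp2c65 had 143 of 224 with 52. Over all genes, CAAAGTCCA was in 10 of the 67 members with a window and 0.451% of the 27025 genes listed, and the 10 were genes of the Cyp2c and Cyp3a runs, whose members resemble each other. TATAAA was in 26 of the 67 members with a window and 14.3% of the 27025 genes listed, AGGTCA in 16 of the 67 members with a window and 15.8% of the 27025 genes listed, and GCGTG in 13 of the 67 members with a window and 30.9% of the 27025 genes listed. A match is a match of letters, and nothing about binding was measured. Hnf4a, the receptor for the CAAAGTCCA site, had 12512 ± 749 normalized counts in Stem (SD, n = 3) and 7492 ± 698 in SecPDG (SD, n = 4) and was called in none of the 8 comparisons.

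Cyp2s1 and Cyp2w1, both known from tissues other than liver, shared the low level in SecPDG and tuft cells. Cyp2s1 had 1088, 930.1 and 874 normalized counts in Stem, 1791, 2207 and 1557 in AbsPro, 151, 293, 273 and 303 in SecPDG and 299, 161, 184, 173 and 270.5 in tuft cells. In Ent it had 952, 1272, 685, 2247 and 789 and in EEC 522 and 1850.2. No SecPDG or tuft library reached the lowest value of the other 4 cell types, 522 in EEC 1. Tuft differed from Stem by a log2 fold change of -2.13 ± 0.36 (SE) and an adjusted p of 8.81e-06. Cyp2w1, studied for its level in colon tumours, had 245, 530.3 and 424 in Stem and 469.6, 521 and 522 in AbsPro. It had 71.9, 63.1, 66.8 and 63.1 in SecPDG, 5.16, 49.3, 44.1, 51.0 and 44.2 in tuft cells and 117, 138, 75.7, 242 and 130.2 in Ent. It was the 1 member lower in Ent than in Stem, with a log2 fold change of -1.50 ± 0.36 (SE) and an adjusted p of 6.12e-04, a call that DESeq2's test did not make and that was lost without the 4 libraries in which over 80% of counts fell outside genes. The EEC libraries had 199 and 397.

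Cyp2d26 stood apart from the other Cyp2d genes, which are described with the enterocytes. It had 397, 442 and 384 normalized counts in Stem, 607, 588 and 711 in AbsPro and 400.2, 430.4, 253, 542 and 281 in Ent, but 2.00, 59.1, 44.5 and 76.6 in SecPDG and 50.3, 60.0, 128, 59.6 and 53.0 in tuft cells. SecPDG differed from Stem by a log2 fold change of -3.19 ± 0.53 (SE) and an adjusted p of 9.33e-06. The EEC libraries lay far apart, with 15.3 and 732, in the same order as the enterocyte markers in them. Among family 4, whose Cyp4f genes end the action of leukotriene B4 and hydroxylate long fatty acids, Cyp4f14 had 197, 375 and 286 in Stem and 792, 982 and 1241 in AbsPro. It had 93.9, 48.6, 55.2 and 83.8 in SecPDG and 1215, 1121, 498, 1138 and 694 in Ent. Unlike the Cyp2 genes above, it was higher in tuft cells (101, 187, 518, 425 and 369) than in SecPDG, with a log2 fold change of 2.18 ± 0.46 (SE) and an adjusted p of 0.0011. That call was lost without SecPDG 2 or SecPDG 3, and its call in SecPDG against Stem without Stem 2, SecPDG 2 or SecPDG 3 (adjusted p up to 0.0369). Cyp4f40 was lower in SecPDG, at 369 ± 62.4 (SD, n = 4) against 1581 ± 27.7 (SD, n = 3) for AbsPro, with a log2 fold change of -2.09 ± 0.33 (SE) and an adjusted p of 4.51e-06.

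**Figure D3:**
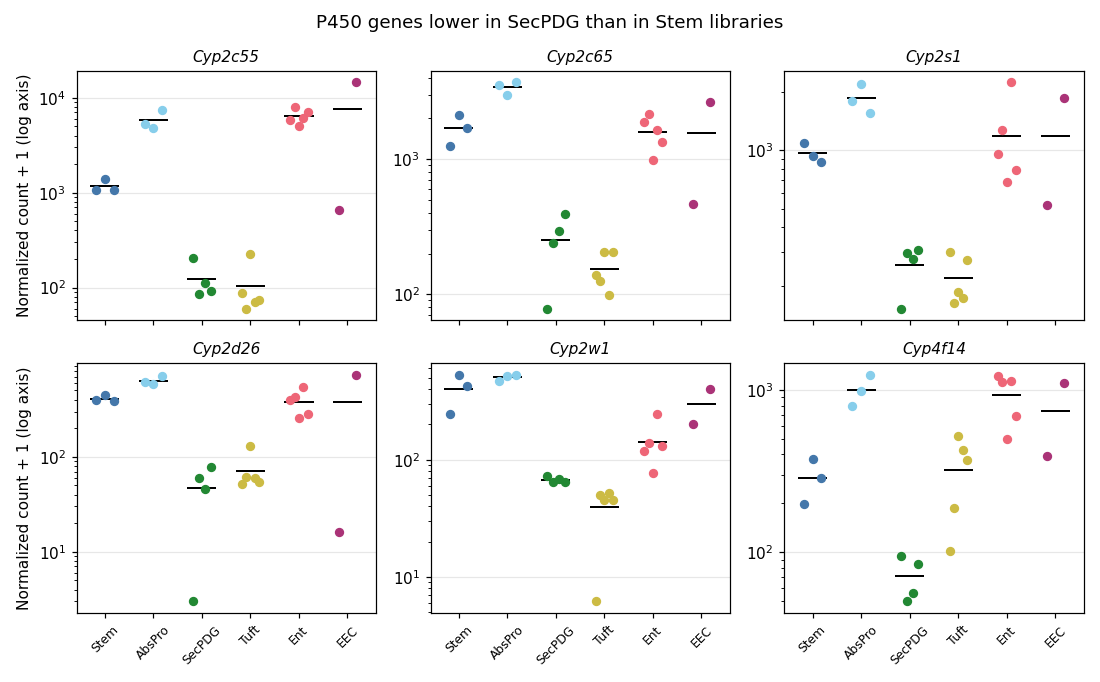
Normalized count + 1 (log axis) of 6 genes in each library (points) by cell type, with the mean as a line. For Cyp2c55, SecPDG points lie between 85.4 and 203 and AbsPro points between 4847 and 7414, and the 2 EEC points of Cyp2c55 and Cyp2d26 lie far apart.

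From Stem to AbsPro, the first step of the absorptive lineage, 2 members rose and 0 fell, beside 0.496% and 0.0922% of all genes. Cyp2c55 rose with a log2 fold change of 2.32 ± 0.47 (SE) and an adjusted p of 0.00207, a fold of 4.98. Cyp4f14 rose with a log2 fold change of 1.80 ± 0.39 (SE) and an adjusted p of 0.00479, a fold of 3.47. For both genes all 3 AbsPro libraries lay above all 3 Stem libraries, as they did for 12 of the 81 members tested, beside 8.78% of all genes. All 3 lay below Stem for 0 members, beside 6.74%. Both calls rest on few libraries: 0 members were called without Stem 1, Stem 3 or AbsPro 3, and 1 without Stem 2. With the older variance estimate of edgeR 0 members were called, and with DESeq2 4 were. An unadjusted p under 0.05 was reached by 12 of the 81 members, beside 9.1% of all genes. Enterocyte markers summed to 13048 to 24341 in Stem and 71026 to 108573 in AbsPro, with 3 of 6 called. The SecPDG markers, 3 of 5 called, summed to 12736 to 22297 in Stem and 40022 to 127201 in AbsPro, and the EEC markers, 2 of 6 called, to 163 to 529 and 3380.1 to 15322. The part of these markers in the result was not tested.

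The second pattern was a set of genes higher in enterocytes than in Stem, many of them also high in EEC libraries. Against Stem, 19 members were higher in Ent and 1 was lower, beside 11.3% and 11.5% of all genes. Every member called higher in EEC than in Stem was among the 19. In EEC the mean was above that of Ent for Cyp2a5, Cyp2b9, Cyp2b13, Cyp2b19, Cyp2b23, Cyp2c55, Cyp2j13, Cyp2u1, Cyp4b1 and Cyp4f39. Among these, Cyp2u1 alone was called between EEC and Ent, and for most of them the EEC libraries lay far apart, as described below. Only Cyp2d10, Cyp2d12 and Cyp2d34 were called higher in Ent than in the next cell type in the order of means. Against AbsPro, 15 were higher in Ent and 2, Cyp2c65 and Cyp2w1, lower, beside 8.68% and 7.97%. The median log2 fold change of the 81 members was 4.72 against Stem, beside 1.17 over all genes, and 4.31 against AbsPro, beside 0.98. With genes at no read in 1 group set at their bound, the members' medians were 4.70 and 4.31. Only 31 of the 81 had a mean of 50 or more. In Ent against Stem, the 6 hepatocyte markers had a median of 4.20, with 0 called. The median was 5.25 for the 5 endothelial markers, 3.32 for the 8 immune markers and 3.15 for the 8 stromal markers. Without the 4 libraries in which over 80% of counts fell outside genes (Ent 1, Ent 2, Ent 3 and EEC 1), 10 of the 20 calls against Stem were kept. These were Cyp2c55, Cyp2c68, Cyp2d10, Cyp2d12, Cyp2d22, Cyp2d34, Cyp2f2, Cyp3a13, Cyp4b1 and Cyp4f14. Of the 10 calls lost, 4 (Cyp2a5, Cyp2b23, Cyp2d13 and Cyp4f39) still had an adjusted p under 0.01 and were below the mean of 50. Against AbsPro, 7 of the 17 were kept.

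Of the 9 Cyp2d members, which are the mouse relatives of the human drug-metabolizing enzyme CYP2D6, 5 were higher in Ent than in both Stem and AbsPro: Cyp2d10, Cyp2d12, Cyp2d13, Cyp2d22 and Cyp2d34. Cyp2d34 (chromosome 15, 82615965 to 82620946, minus strand) had 1507, 2266, 1173, 1780.2 and 1062 normalized counts in Ent. It had 113, 25.0 and 27.8 in Stem, 131, 14.6 and 123 in AbsPro, 0, 28.9, 17.8 and 23.8 in SecPDG and 115, 62.7, 5.34, 60.8 and 40.7 in tuft cells. The EEC libraries had 176 and 127. The highest library outside Ent was EEC 1, and the lowest Ent library lay far above it. The adjusted p was 2.16e-12 against Stem and 1.39e-06 against EEC, the next cell type in the order of means (edgeR). Cyp2d34 was singled out after its values were seen, as were Cyp2u1 and Cyp4b1 in EEC, Cyp2s1, Cyp4f40 and Cyp3a13.

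Cyp2d12 was low outside enterocytes. It had 638, 1006, 719, 648 and 347 normalized counts in Ent and 70.7 and 12.8 in EEC. The Stem libraries had 0, 0.676 and 10.7, the AbsPro libraries 12.7, 0 and 0, the SecPDG libraries 0.999, 1.31, 0 and 0 and the tuft libraries 0, 30.7, 2.67, 38.9 and 6.19. Ent and the other cell types did not overlap. Ent differed from Stem by a log2 fold change of 7.40 ± 0.71 (SE) and an adjusted p of 1.69e-12. It differed from AbsPro by a log2 fold change of 7.09 ± 0.71 (SE) and an adjusted p of 2.51e-11, and EEC differed from Ent by a log2 fold change of -4.20 ± 0.69 (SE) and an adjusted p of 4.27e-06. Cyp2d13 had 318, 336, 275, 334 and 250.2 in Ent, at most 4.85 in Stem, and a log2 fold change of 7.37 ± 0.90 (SE) and an adjusted p of 3.81e-09. In EEC 1 it had 153 and in EEC 2 15.4. Cyp2d10 had 231 ± 56.9 (SD, n = 5) in Ent and 17.2 ± 24.3 (SD, n = 2) in EEC, and Cyp2d22 had 211 ± 21.3 (SD, n = 5) and 146 ± 34.1 (SD, n = 2). On chromosome 15 (82370527 to 82794294) the Cyp2d genes with a position lie in 1 run of 8, in which Cyp2d26, lower in SecPDG and tuft cells, is at 1 end. Of the transcript windows, 14.8% of Cyp2d10 but 1.17% of Cyp2d12 and 0% of Cyp2d34 occur in another gene.

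Cyp3a13 was the 1 member of family 3, the family of the main human intestinal P450, with a mean of 50 or more. It had 128, 115 and 88.3 normalized counts in Stem, 382, 129 and 547 in AbsPro and 740.2, 1438, 1035, 1284 and 1049 in Ent. It had 103, 51.2, 22.3 and 41.4 in SecPDG and 11.6, 101, 56.1, 43.8 and 26.5 in tuft cells, and 93.6 and 731 in EEC. Ent lay above every other library, and the means ran from Stem through AbsPro to Ent. The step from Stem to AbsPro did not pass (adjusted p = 0.0622), and that from AbsPro to Ent did (adjusted p = 5.04e-04, edgeR), except without AbsPro 2, where the adjusted p was 0.014. The other 8 members of family 3, a run on chromosome 5 that holds the liver gene Cyp3a11, had group means of at most 88.6. Cyp3a41b had no count in any library. Of its transcript windows 88.2% occur in Cyp3a41a, and reads from those windows could not be told apart. Cyp3a41a, with 90.8% of its windows in other genes, did hold reads, and why Cyp3a41b held none was not tested.

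Cyp2c68 had 0.808, 8.12 and 33.5 normalized counts in Stem, 141, 150.4 and 132 in AbsPro and 227, 422, 313, 1359.5 and 505 in Ent. Its Ent libraries lay above those of Stem and AbsPro, with Ent 4 far above the rest, and the adjusted p of Ent was 3.85e-09 against Stem and 4.61e-04 against AbsPro (edgeR). Of its transcript windows 19.8% occur in other genes, the highest share of the 31. Cyp2f2, the naphthalene-activating P450 of airway cells, had 266, 150.3, 149, 416 and 174 in Ent and at most 76.9 elsewhere. Cyp4b1, a P450 of lung that activates furans, had 221, 181, 151, 117 and 120 in Ent and 266 and 513 in EEC, above the 13.7, 0 and 4.98 of Stem. Ent differed from Stem by a log2 fold change of 4.97 for Cyp2f2 and 4.72 for Cyp4b1. Cyp2c55 and Cyp4f14, high in AbsPro already, were higher in Ent than in Stem (log2 fold changes of 2.45 and 1.69) and did not pass against AbsPro (adjusted p = 0.779 and 0.795, edgeR).

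**Figure D4:**
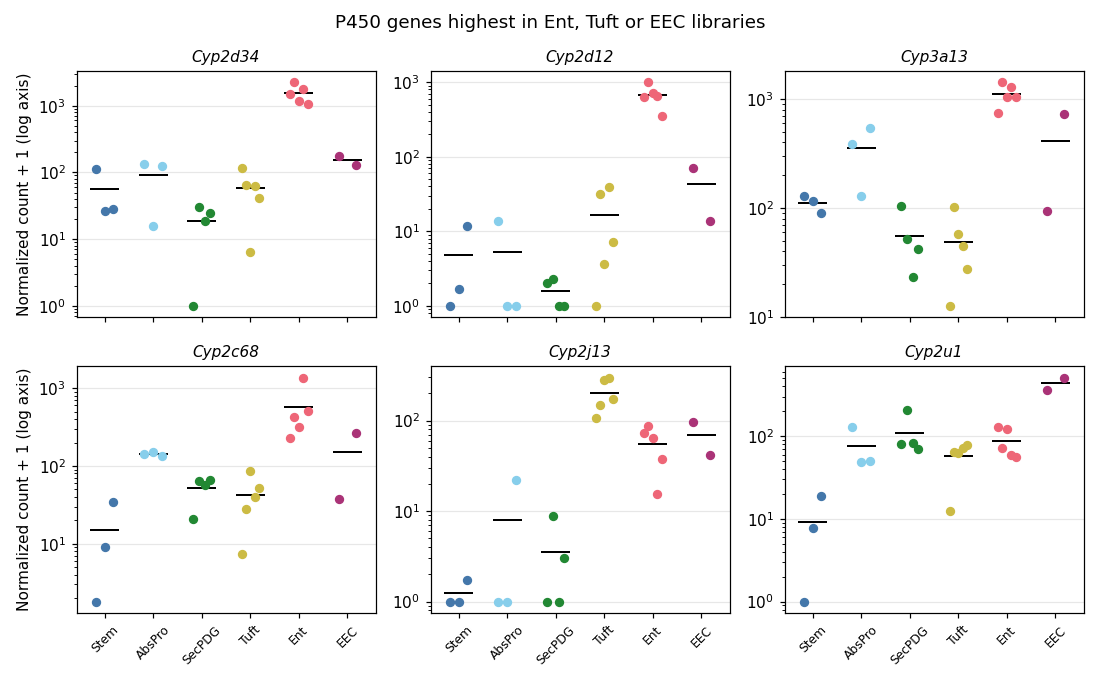
Normalized count + 1 (log axis) of 6 genes in each library (points) by cell type, with the mean as a line. The Ent points of Cyp2d34 lie at 1062 or more and all other points at 176 or less, Cyp2j13 is highest in tuft libraries and Cyp2u1 in EEC libraries.

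Tuft cells had 1 member above all other cell types. Cyp2j13, of the subfamily that makes epoxides of arachidonic acid, had 104, 149, 282, 297 and 174 normalized counts in tuft cells. It had 0, 0 and 0.712 in Stem, 0, 0 and 20.8 in AbsPro and 0, 7.88, 0 and 2.07 in SecPDG. In Ent it had 72.6, 86.1, 63.5, 14.5 and 36.6 and in EEC 95.5 and 41.0. Every tuft library lay above every library of the other cell types. The Stem libraries held 1 read in all, so that the ratio of tuft to Stem was 823 with a 95% counting interval of 147 to 32558 (exact, counting error only), and the adjusted p was 1.79e-07. Against SecPDG, tuft differed by a log2 fold change of 6.50 ± 0.96 (SE) and an adjusted p of 1.33e-06, and Ent was lower than tuft by a log2 fold change of -1.88 ± 0.49 (SE) and an adjusted p of 0.00445. EEC, the next in order, did not differ beyond its spread (adjusted p = 0.0819). The other call between tuft and SecPDG was Cyp4f14, so that 2 members were higher and 0 lower, beside 3.07% and 0.351% of all genes, and 1 was left without SecPDG 2 or SecPDG 3. Immune markers were also higher in tuft cells, which like all others were sorted as Cd45-, with 2 of 8 called against SecPDG. Their sum, led by Ptprc (CD45), was 1483 to 3668 against 42.7 to 165 in SecPDG, and their part in the result was not tested. Cyp4f39, a skin gene for ultra-long fatty acids, was higher in tuft cells than in Stem (81.3, 103, 38.7, 85.1 and 21.2 against 0, 4.74 and 0.712), and its call was lost without any 1 Stem library or Tuft 4 (adjusted p up to 0.0256). Without Tuft 5, the tuft library with the lowest background, 11 members were called in tuft against Stem in place of 7.

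EECs had 15 members higher than Stem and 0 lower, beside 11.3% and 9.13% of all genes, and for 7 of the 15 the EEC and Stem libraries overlapped. The 2 EEC libraries did not show the same genes. Without EEC 1, 6 members were called, and all 6 were among the 15: Cyp2c55, Cyp2c68, Cyp2u1, Cyp3a13, Cyp4b1 and Cyp4f14. Without EEC 2, 14 were called, of which 11 were among the 15. Only Cyp2u1 and Cyp4b1 kept their call in each of these fits, in which the lone EEC library is assumed to vary like the other groups. Cyp2u1, a fatty acid hydroxylase, had 361 and 509 normalized counts in EEC. It had 0, 6.76 and 17.8 in Stem, 128, 47.3 and 49.6 in AbsPro, 78.9, 208, 82.8 and 69.3 in SecPDG, 11.6, 64.0, 61.4, 70.5 and 76.9 in tuft cells and 127, 71.5, 119.6, 57.9 and 55.6 in Ent. Both EEC libraries lay above every other library, with a log2 fold change of 5.68 ± 0.73 (SE) and an adjusted p of 8.15e-09 against Stem and a log2 fold change of 2.37 ± 0.49 (SE) and an adjusted p of 3.91e-04 against Ent. SecPDG was also higher than Stem (a log2 fold change of 3.61 ± 0.81 (SE) and an adjusted p of 0.00121), a call lost without Stem 1 or SecPDG 2 (adjusted p up to 0.0153), and without SecPDG 2 the count of members called in SecPDG against Stem was 5 in place of 8. Cyp4b1 in EEC differed from Stem by a log2 fold change of 6.07 ± 0.78 (SE) and an adjusted p of 5.55e-09.

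The 2 EEC libraries also differed in other values. Cyp2c55 (657 and 14633 in EEC 1 and EEC 2), Cyp2d26 (15.3 and 732), Cyp2s1 (522 and 1850.2) and Cyp3a13 (93.6 and 731) were higher in EEC 2, where the enterocyte markers were 142833 against 23297 in EEC 1. Without EEC 2, the log2 fold change of Cyp2c55 against Stem was -0.84 in place of 2.72. Cyp2b23 (535 and 1.28), Cyp2b13 (519.6 and 0), Cyp2b19 (449 and 0), Cyp2b9 (479.5 and 0), Cyp2a5 (309 and 2.56) and Cyp4f39 (285 and 1.28) were high in EEC 1 and near 0 in EEC 2. The background of EEC 1, defined below, was 10.1 normalized counts per kilobase and that of EEC 2 1.69. The part of these values in the result was not tested.

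The third pattern was a low level of nearly all other members, with sums higher in tuft, Ent and EEC libraries than in Stem, AbsPro and SecPDG. Of the 51 members below a mean of 50, 0 reached a group mean of 50 in Stem, AbsPro or SecPDG, 11 did in tuft, 33 in Ent and 20 in EEC. They include the classic liver genes Cyp1a2, Cyp2e1 and Cyp3a11, the aryl hydrocarbon receptor target Cyp1a1, and all 8 Cyp4a genes, which hydroxylate fatty acids in liver and kidney. The other 14 of the 51, 8 of them Cyp2c genes and 4 Cyp3a genes, reached 50 in no cell type, and Cyp3a41b had no read in any library. Their sum was 111 to 356 normalized counts in Stem, 101 to 326 in AbsPro and 153 to 462 in SecPDG. It was 528 to 2340.3 in tuft, 1696 to 4207 in Ent, 4552 in EEC 1 and 598 in EEC 2. Without the minimum mean, 60 of the 81 members in place of 20 passed the adjusted p between Ent and Stem, beside 43.9% of all genes, and 40 of the 60 were below that mean.

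Background was estimated from 1496 genes of sensory receptor, keratin-associated and crystallin families, which act mainly in sensory organs, hair and lens, although a few olfactory receptors are known from enteroendocrine cells. Pooled, they had 0.0345 to 0.631 normalized counts per kilobase in the Stem, AbsPro and SecPDG libraries, 0.603 to 3.60 in tuft and 2.23 to 6.54 in Ent. The sum of the 51 low members was high in the libraries with a high background and low in those with a low one, within cell types too: Tuft 5 was lowest of the tuft libraries in both, Ent 4 lowest of the Ent libraries, and EEC 1 highest of all 22. In Ent, the low members had 0 to 60.0 per kilobase with a median of 25.6, the background genes a median of 4.70 and a 99th percentile of 31.8. There were 20 of the 51 above the 99th percentile of the background genes in Ent, 10 in tuft and 2 in EEC. Of the hepatocyte markers other than Ttr, the 5 genes Alb, Apoa2, Serpina1a, Fgb and Ahsg had 15.1 to 52.5 per kilobase in Ent, and 2 of the 51 lay above the highest of them. Markers of other cells were also higher: all 5 endothelial markers were called higher than Stem in tuft, Ent and EEC, with sums of 78.5 to 176 in Stem and 556 to 1403 in Ent. The 8 stromal markers, 3 of them called higher in Ent, summed to 69.1 to 248 in Stem and 528 to 1521 in Ent, and 2 of the 8 immune markers were called higher in Ent. Their part in the level of the low members was not tested.

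**Figure D5:**
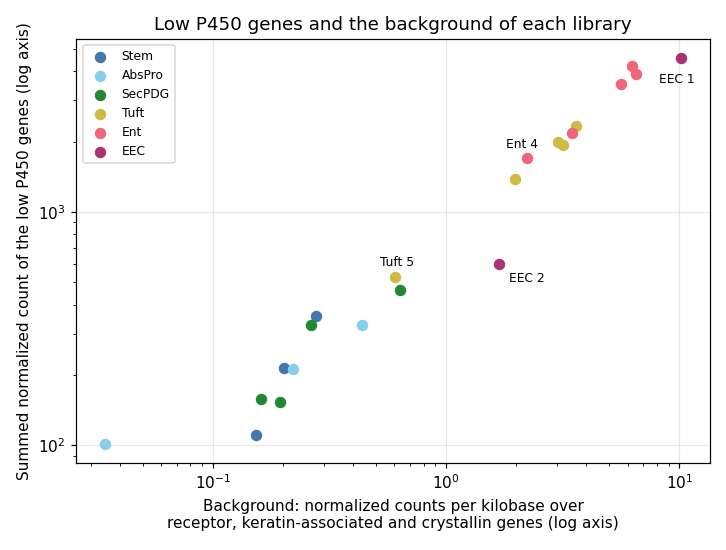
Summed normalized count of the 51 low P450 genes (log axis) against the background per kilobase of the same library (log axis), 22 libraries colored by cell type. Libraries of Stem, AbsPro and SecPDG lie at the lower left, at sums of at most 462, and EEC 1 lies at the upper right, at 4552.

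Cyp1a1 had 64.9, 61.8, 83.0, 9.64 and 48.3 normalized counts in Ent, 0, 38.7, 4.01, 35.2 and 9.72 in tuft cells and 70.7 and 10.3 in EEC, and at most 3.94 in any library of the other cell types. Its background estimate, from the pooled background genes, was 25.2% of its mean in Ent. Per kilobase, that mean lay below the 95th percentile of the background genes in Ent, 20.8 normalized counts. The means of Cyp1a1 in tuft and EEC also lay below the 95th percentile there. Cyp2r1, a vitamin D 25-hydroxylase, differed from this pattern, with group means of 17.3 in Stem, 36.2 in AbsPro, 33.9 in SecPDG, 66.0 in tuft, 39.7 in Ent and 15.0 in EEC. Of the members called higher in Ent than in Stem, Cyp2b19, Cyp2j13 and Cyp2u1 did not exceed the 99th percentile of the background genes per kilobase in Ent. Cyp2a5, Cyp2b9, Cyp2b13, Cyp2b19, Cyp2b23 and Cyp4f39, 6 genes known from liver, lung or skin, had Ent means of 89.1 to 138 normalized counts. Cyp2b13, with no read in Stem, had 198, 122, 175, 24.1 and 51.2 in Ent, at least 154-fold higher, against a floor of 3 counts over the Stem libraries. Cyp2a5, the coumarin hydroxylase, had 1 read in Stem and 109.7, 84.9, 142, 50.6 and 58.5 in Ent, a ratio of 367 (95% counting interval 65.4 to 14542). Cyp2j13 in Ent, also against 1 read, had a ratio of 224 (interval 39.8 to 8896). Without the 4 libraries with over 80% of counts outside genes, 0 of the 6 were called in Ent against Stem, and 3 of them (Cyp2a5, Cyp2b23 and Cyp4f39) were among those with an adjusted p under 0.01 and a mean below 50. Cyp4f39 in Ent had an adjusted p of 2.07e-05 (edgeR) with all libraries.

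By contrast, 6 members with a mean of 50 or more were called in none of the 8 comparisons: Cyp2j6, Cyp2j9, Cyp4f13, Cyp4f16, Cyp4f17 and Cyp4v3. Cyp2j6, an arachidonic acid epoxygenase, ranged from 506 in EEC to 1082 in AbsPro by group mean, and its SecPDG libraries (594, 723, 734 and 907) lay among those of Ent (584, 627, 364, 949.7 and 751). Cyp4f13 had group means of 269.7 in Stem to 627 in EEC, and Cyp4f16 of 243 in tuft to 385 in AbsPro. No neighbours in the order of the means differed for these 3. Cyp4v3, the mouse form of a retinal fatty acid hydroxylase, had 289 ± 77.5 (SD, n = 5) in Ent and 92.6 ± 48.6 (SD, n = 5) in tuft libraries. It was the 1 of the 6 that passed the test over the 6 cell types (adjusted p = 0.00215) and, outside the 8 comparisons, between Ent and tuft (adjusted p = 0.002, edgeR) and between EEC and tuft (0.00556). In the SecPDG libraries Cyp2j6, first there per kilobase, made up 20.1%, 18.2%, 21.4% and 24.1% of the summed P450 count. A p that misses the threshold does not show that levels were equal.

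The genes that regulate P450s, pass electrons to them or make their heme were followed in lists of their own. Of 14 regulators, 4 were lower and 0 higher in SecPDG than in Stem, and 6 were lower and 1 higher in tuft cells, beside 1.59%, 3.39%, 4.24% and 8.07% of all genes. Without 1 library at a time, 1 to 3 were lower in SecPDG and 5 to 7 in tuft cells. In AbsPro 0 of the 14 were called against Stem. In Ent 2 were lower and in EEC 2, beside 11.5% and 9.13% of all genes. These calls were lost without the 4 libraries with over 80% of counts outside genes. The median log2 fold change of the 14 was -0.84 in SecPDG and -1.07 in tuft cells. Nr3c1, the glucocorticoid receptor, was lower in tuft cells (738 ± 155 against 2357 ± 392 in Stem, log2 fold change of -1.67 ± 0.31 (SE), adjusted p = 3.71e-05) and in SecPDG, the latter a call lost without any 1 of 5 libraries (adjusted p up to 0.024, edgeR). Rxra, the partner of many of these receptors, was lower in tuft cells (log2 fold change of -1.29 ± 0.30 (SE), adjusted p = 0.0012), except without Stem 1 (adjusted p = 0.0104, edgeR). Tiparp, a target of the aryl hydrocarbon receptor, was the 1 regulator that was higher, in tuft cells (819.6 ± 371 against 182 ± 92.0, log2 fold change of 2.17 ± 0.40 (SE), adjusted p = 3.80e-05).

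Of the 6 electron donors and partners, 0 were called against Stem in any of the 5 cell types, and 1, Pgrmc1, was lower in Ent than in AbsPro, a call that was lost with both other scalings, in DESeq2's test, with the older estimate, in the fit of 2, without the 4 libraries, and without AbsPro 2 or Ent 3 (adjusted p up to 0.019, edgeR). Cyb5b and Cyb5r3, of the cytochrome b5 system, had 6298 ± 466 and 3418 ± 369 normalized counts in AbsPro (SD, n = 3). Por itself had 1832 ± 278 in Stem (SD, n = 3) and 1575 ± 339.6 in Ent (SD, n = 5). Of the 10 genes of heme synthesis and breakdown, 5 were lower and 0 higher in Ent than in Stem, beside 11.5% of all genes lower, with 0 called in AbsPro, SecPDG and tuft cells. In EEC 3 were lower and 0 higher, beside 9.13% of all genes, a direction that depended on the scaling: with DESeq2's size factors, and with DESeq2's test, 2 were higher and 0 lower. Without Stem 1, 1 was higher in EEC and 0 lower, and in the fit of the 2 cell types alone 0 were called. Without the 4 libraries with over 80% of counts outside genes, 0 of the 10 were lower in Ent. Alas1, the rate-limiting enzyme, had 2467 ± 342 in Stem and 1565 ± 507 in Ent and was not called between them. Urod and Cpox were lower in Ent than in Stem (log2 fold change of -1.70 ± 0.32 (SE), adjusted p = 2.39e-05, and log2 fold change of -1.19 ± 0.32 (SE), adjusted p = 0.00179), on a scale on which the median of abundant genes was itself -0.284, and the call of Cpox was lost with DESeq2's size factors. Of the 4 epoxide hydrolases, which act on the epoxides that P450s make, Ephx1 was lower in Ent (log2 fold change of -1.61 ± 0.35 (SE), adjusted p = 2.08e-04), a call lost without those 4 libraries, and Ephx2 in EEC (log2 fold change of -1.71 ± 0.48 (SE), adjusted p = 0.00276), a call lost without EEC 2 (adjusted p = 0.0416, edgeR). Among 21 P450 genes of other families, Cyp51 of cholesterol synthesis had 2727 ± 296 in SecPDG against 792 ± 146 in Stem (log2 fold change of 1.78 ± 0.37 (SE), adjusted p = 5.48e-04), the 1 call there, which was lost without Stem 1 (adjusted p = 0.0112, edgeR). Cyp27a1, which hydroxylates sterols, was higher in tuft, Ent and EEC than in Stem. Its tuft call was lost without Stem 1, Stem 2 or Tuft 4 (adjusted p up to 0.0324, edgeR), its EEC call without EEC 2 (0.0619) and in the fit of 2, and all 3 with the older estimate. The median of the 21 was 4.58 in Ent, beside 4.72 for families 1 to 4.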

How the data were processed

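RNA of 22 sorted libraries was measured by RNA-seq. The authors deposited raw counts of reads per gene for each library, made with STAR 2.5.2a and HTSeq 0.6.1p1 on mm10, per the submitters' processing notes. Low-input cDNA libraries were counted per gene symbol. Reads were counted without regard to strand, per the study's methods, so reads of Cyp4x1os and of genes on the other strand cannot be told apart, and near-identical copies are uncertain (8 members share over 20% of their 100-base transcript windows with another gene). The 5 entries that name no gene (53.95% to 91.64% of counts) were left out of library sizes. The deposited splicing and polyadenylation tables, which hold the authors' own comparisons, were not used.

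Members were all symbols of families 1 to 4 without a pseudogene mark. The members and gene lists were chosen with earlier results of these data known. In R 4.3.3, edgeR 4.0.16 (filterByExpr, TMM on the genes kept, glmQLFit and glmQLFTest with the variance estimate of version 4) was fitted once to all 22 libraries over 22781 genes, with Benjamini-Hochberg adjustment for each comparison. Of the 82 members, 81 passed the filter and 31 had the mean of 50 normalized counts that a call needed beside an adjusted p under 0.01, the thresholds of the study's methods. Standard errors were the log2 fold change divided by the square root of F. The p-values set a difference of group means against the spread between libraries, which was estimated over all 6 cell types together. For EEC, with 2 libraries, that spread comes mostly from the other cell types. The test was checked on simulated counts. Named with values were members with a mean of 50 in at least 1 cell type, with full statistics for up to 6 called members with the largest log2 fold change per comparison, and up to 4 genes of each pathway list. A few others were named after their values were seen, as stated.

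Exon lengths and positions came from GENCODE on GRCm38 and 250-base promoter windows from RefSeq on GRCm38.p6, read with biopython 1.88 and pandas 2.3.3 in Python 3.11.15 (numpy 2.4.6, scipy 1.17.1), and plotted with matplotlib 3.10.9. Cyp2d13 has no length here, so per-kilobase limits were not applied to it. Motifs were searched on both strands. Background was the pooled count of 1496 genes of the Olfr, Vmn1r, Vmn2r, Taar, Krtap and Cryg families per kilobase. Alternatives were DESeq2 1.42.0, other scalings, filters, minimum means and thresholds, a block of replicate numbers, fits of 2 cell types, background limits, and leaving out libraries. Gene counts per library ran from 4122122 to 22462518, and counting intervals cover counting error only.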

Additional observations from a re-analysis of the deposited data

Results flagged for a closer look

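In groups of 4 or 5 libraries, 14 of 99 tested combinations of a gene and a cell type held a library set apart by Dixon's criterion (the gap to its nearest neighbour as a share of the group's range). Its rate of about 1 in 20 by chance holds for independent, normally spread values. Counts are skewed, and genes of 1 library are not independent, so the 14 cannot be set against that rate. The values are normalized counts, each given with the range of the other libraries of its cell type. In tuft cells, Tuft 3 was high for Cyp2c55 (226 against 58.7 to 87.7) and for Cyp2d26 (128 against 50.3 to 60.0). Tuft 1 was low for Cyp2w1 (5.16 against 44.1 to 51.0) and Cyp2u1 (11.6 against 61.4 to 76.9) and high for Cyp4f17 (301 against 58.8 to 119). Tuft 5, the tuft library with the lowest background, was high for Cyp2j6 (859 against 437 to 525) and low for Cyp2b19 (18.6 against 54.2 to 68.1). In SecPDG, the same library, SecPDG 2, was high for 4 genes: Cyp2u1 (208 against 69.3 to 82.8), Cyp2d13 (6.57 against 0 to 1.03), Cyp2b13 (11.8 against 0 to 1.03) and Cyp2b19 (14.5 against 0 to 0). For Cyp2d13, Cyp2b13 and Cyp2b19 these values were only 5, 9 and 11 reads. SecPDG 2 also had the highest background of the SecPDG libraries, 0.631 normalized counts per kilobase. In Ent, Ent 4 was high for Cyp2c68 (1359.5 against 227 to 505) and low for Cyp2b19 (45.8 against 122 to 144), and it had the lowest background of the Ent libraries, 2.23. Ent 3 was high for Cyp4f17 (165 against 108 to 119).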

How the results depend on the processing

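Of the 80 calls of a member in the 8 comparisons, 29 were kept under every alternative and without any 1 library, and 48 were kept without any 1 library. The counts of members called moved as follows. In AbsPro against Stem (2) they were 4 at an adjusted p under 0.05, 0 with the older variance estimate of edgeR, 5 in a fit of the 2 cell types alone, 4 with DESeq2 and 5 without the 4 libraries with over 80% of counts outside genes. In Tuft against Stem (7) they were 15 at an adjusted p under 0.05, 15 without the minimum mean, 12 with the minimum in the higher cell type and 15 with DESeq2, and with library totals the split was 1 higher and 5 lower. In Ent against Stem (20) they were 60 without the minimum mean, 49 with the minimum in the higher cell type, 32 with DESeq2's size factors, 13 with the older estimate, 39 in the fit of 2 and 10 without the 4 libraries. In EEC against Stem (15) they were 29 without the minimum, 28 with it in the higher cell type, 2 in the fit of 2, 7 without the 4 libraries and 3 where the level per kilobase had to exceed the hepatocyte genes. In Ent against AbsPro (17) they were 60 without the minimum mean, 48 with the minimum in the higher cell type, 30 with DESeq2's size factors, 29 with library totals, 3 with the older estimate, 33 in the fit of 2 and 7 without the 4 libraries. In Tuft against SecPDG (2) they were 5 at an adjusted p under 0.05 and 4 with DESeq2. The older estimate, the hepatocyte and background limits per kilobase and the set of 18 libraries were chosen after seeing the data, and the cause of these moves was not tested.

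Without 1 library at a time, the counts ran from 0 to 2 in AbsPro against Stem, 5 to 7 in SecPDG, 6 to 11 in Tuft, 17 to 20 in Ent and 6 to 14 in EEC, and from 8 to 9 in SecPDG against AbsPro, 12 to 20 in Ent against AbsPro and 1 to 2 in Tuft against SecPDG. The summed level was 3385.5 to 3718 in SecPDG, 5123.6 to 5500.8 in Tuft, 7528.5 to 8037.8 in Stem, 17053.6 to 19213.6 in AbsPro, 21478.5 to 23368.3 in Ent and 12639.2 to 27412.3 in EEC. With DESeq2's size factors it was 6608.5 in Stem, 15205.3 in AbsPro, 2992.9 in SecPDG and 28697.8 in Ent, and with library totals 7227.1 in Stem, 2771.3 in SecPDG and 29593.5 in Ent. In EEC against Stem, log2 fold changes without 1 library at a time ran from -7.11 to 6.07 for Cyp2b19, -1.74 to 10.70 for Cyp2b23, -6.82 to 10.61 for Cyp2b9, -0.70 to 7.81 for Cyp4f39, -0.84 to 3.47 for Cyp2c55 and -0.23 to 2.57 for Cyp3a13. They changed sign without EEC 1 for the first 4, without the 4 libraries for the same 4 (-7.11, -1.54, -6.82 and -0.50), and without EEC 2 for Cyp2c55 and Cyp3a13. Over 552 levels recomputed for the 31 members above the minimum mean, 482 moved by less than 1 SD and 70 by more. Depth limits the members near background, since 1 read was worth up to 1.91 normalized counts, in EEC 1.

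The replicate numbers did not pair the libraries: deviations from the group means had a median correlation of -0.00231 over 44 pairs with the same number and 0.0201 over 154 pairs with different numbers. With the replicate number as a block, 12 members (6 higher and 6 lower) were called in Tuft against Stem in place of 7, the call of Cyp2c66 in SecPDG against Stem was lost, and the counts of the other 6 comparisons stayed within 1.5 times.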
